A study of Homo sapiens with 6 samples.

Results

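The genes described here handle glucocorticoids, the steroid hormones whose synthetic forms are a mainstay of myeloma treatment, or belong to the receptor response to them. They are HSD11B1, NR3C1, TSC22D3, FKBP5 and FKBP4, which are 5 of the 11963 genes that the platform annotation names on the array. All 10 of their probe sets, of 22277 in all, were taken. A further entry of the gene list, PER1-independent, is no gene symbol and matched no probe set. The probe sets annotated to PER1 also carry the symbol of a microRNA gene and were not used. HSD11B1 was chosen by its measured rise in the knockdowns, so its values are given as a description with no test. The set was also chosen for the use of glucocorticoids in myeloma treatment, and the other genes belong to it by their role.

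The cells were NCI-H929, an established human multiple myeloma line, sampled 24 h after electroporation. The scramble group received a non-targeting siRNA, the siRRM1 group an siRNA against RRM1 and the siRRM2 group an siRNA against RRM2, with 2 arrays in each group. RRM1 and RRM2 are the large and small subunits of ribonucleotide reductase, which makes the deoxyribonucleotides for DNA synthesis. All groups were electroporated, and the labels name no added steroid. Nothing in the labels ties replicates to separate cultures, and p-values then measure only the spread between these arrays, which may be technical. The number of arrays limits the precision.

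Cortisol and its synthetic relatives enter the cell and bind the glucocorticoid receptor, which is held ready by a chaperone complex and then acts on genes in the nucleus. HSD11B1 regenerates active cortisol from inactive cortisone inside the cell, using cofactor supplied by H6PD, while HSD11B2 runs the reaction the other way. FKBP4 and FKBP5 are related cochaperones of the receptor complex. FKBP4 favours its move to the nucleus, and FKBP5 holds hormone binding down and is itself induced by the receptor. TSC22D3, also called GILZ, is a classic target gene of the receptor. In lymphoid cells and myeloma the hormone can cause arrest and death.

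On the knockdown check, RRM1 probe set 201477_s_at was at 22.4% and 11.7% of the scramble mean on the siRRM1 arrays. The other RRM1 probe set, 201476_s_at, was at 24.3% and 11.1% there. RRM2 probe set 201890_at was at 21.2% and 39.6% on the siRRM2 arrays, and the other, 209773_s_at, at 12.8% and 18.5%. Replicates correlated at r = 0.993 to 0.996 across 7936 genes, which are not independent replicates. On siRRM1 replicate 2 the log2 difference between the 3′ and 5′ control probe sets of the ISGF3A transcript was 3.57, against 2.78 to 3.24 elsewhere. All 10 plasma cell and myeloma markers tested were well expressed, with median log2 signals of 10.6 to 11.3 per array. Each of the 10 was lower on both siRRM1 arrays than on either scramble array, as were 30.9% of all genes, and 2 of them passed the test.

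HSD11B1 and TSC22D3 moved most over the 6 arrays, and the 250 bases before a RefSeq transcription start of each are shown for that reason. For HSD11B1 the window is chr1:209685929-209686178 on the plus strand. For TSC22D3 it is chrX:107717063-107717312 on the minus strand, the only one of its 4 listed windows with a motif match. Both are from RefSeq on GRCh38.p14, read 5′ to 3′ along the gene, and capitals mark motif matches.
HSD11B1: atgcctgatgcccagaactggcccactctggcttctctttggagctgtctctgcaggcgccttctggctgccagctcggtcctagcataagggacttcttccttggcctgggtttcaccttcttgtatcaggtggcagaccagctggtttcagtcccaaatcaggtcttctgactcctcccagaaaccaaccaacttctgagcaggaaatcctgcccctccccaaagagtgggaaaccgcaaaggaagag
TSC22D3: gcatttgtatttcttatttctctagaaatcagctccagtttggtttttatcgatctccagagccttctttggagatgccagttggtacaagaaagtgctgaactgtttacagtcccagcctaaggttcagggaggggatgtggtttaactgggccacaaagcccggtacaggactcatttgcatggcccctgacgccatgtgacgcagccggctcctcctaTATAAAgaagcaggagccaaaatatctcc
The motifs searched on both strands were the glucocorticoid receptor half-site AGAACA, the full response element (AGAACA and TGTTCT with 3 bases between them), a C/EBP site TTGCNNAA, an AP-1 site TGANTCA, the CCAAT box and the TATA box TATAAA. The last 3 were added after the first 3 had given no match in the HSD11B1 window. That window held none of the 6. The TSC22D3 window held the TATA box, with its first base 29 bases before the start, and 10.7% of 35116 promoter windows of the same length hold those letters on one strand or the other. The half-site occurs in 12.4% of them and in 0 of the 14 windows of HSD11B1, NR3C1, TSC22D3 and FKBP5, and the full element occurs in 1 window of all. A match is a description of letters, and the absence of one says nothing about binding elsewhere. FKBP4 has no entry in the promoter table.

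HSD11B1, the enzyme that regenerates cortisol, had the widest range of all members. Its single probe set, 205404_at, gave log2 signals of 4.34 and 5.04 on the scramble arrays, 6.85 and 7.71 on the siRRM1 arrays and 6.49 and 7.35 on the siRRM2 arrays. Every knockdown array lay above both scramble arrays, and the siRRM1 and siRRM2 arrays overlapped. Of all genes, 28.4% lay higher without overlap in siRRM1 and 27.1% in siRRM2. The siRRM1 mean was 6.02-fold the scramble mean (log2 2.59, SE 0.37) and the siRRM2 mean 4.70-fold (log2 2.23, SE 0.37). These are the values for which the gene was chosen. They share the scramble arrays and are not independent of each other. Between the knockdowns the log2 difference was 0.36, with an SE of 0.37. It was 0.36 between the arrays of either replicate number. Without siRRM1 replicate 2 or without siRRM2 replicate 1 it was -0.07. Without siRRM1 replicate 1 or without siRRM2 replicate 2 it was larger than 0.36. Each of these 4 fits sets a lone array against the mean of both arrays of the other knockdown, so the replicate gap enters the difference. Both scramble arrays lay under a log2 signal of 5.44, the mean over the 6 arrays that a gene had to reach to enter the fit, so HSD11B1 (mean 6.30) passed through its knockdown arrays.

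**Figure D1:**
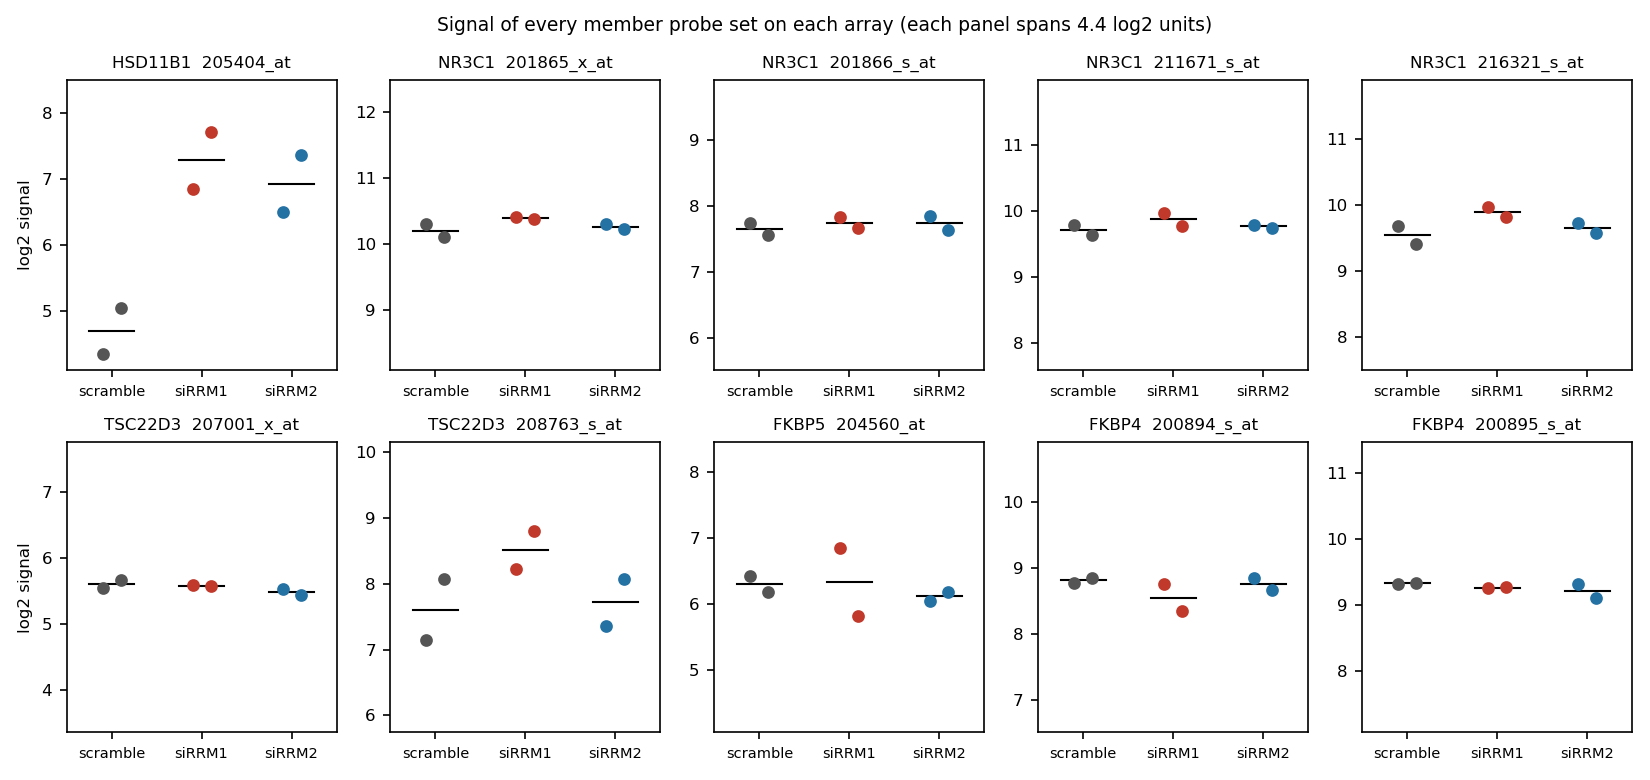
Log2 signal (vertical axis) of each of the 10 probe sets on each array, by group, with replicate 1 left and replicate 2 right. Horizontal lines are group means, and every panel spans the same number of log2 units. HSD11B1 is the one panel in which both knockdowns stand clear of scramble by more than the gap between replicates.

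Transcripts of some other blood cells were also higher where HSD11B1 was. Of 9 myeloid markers 3 reached the floor for testing, S100A8, S100A9 and CSF1R, and the linear signals of all 9 summed to 260.2 to 280.2 per array in scramble, 726 to 1586 in siRRM1 and 397 to 765 in siRRM2. S100A8, at 4.45 and 4.44 on the scramble arrays, reached it only through the knockdowns, while S100A9 and CSF1R were above it on all arrays. The defining monocyte markers CD14 (mean log2 signal 4.30) and LYZ (3.11) were below the floor. So were ITGAM (5.14), FCGR1A (3.23), MPO (4.38) and MARCO (5.42). Over the arrays CD14 ran only from 4.23 to 4.39, ITGAM from 5.07 to 5.21 and MARCO from 5.18 to 5.79. The myeloid sum therefore rose mostly through S100A8, S100A9 and CSF1R, and not through the list as a whole. Of 7 T and NK cell markers 2 reached it, NKG7 (4.35 and 5.15 in scramble) only through the knockdowns, with sums of 199.6 to 233.9, 238.4 to 299.6 and 267.1 to 278.7 in the same order. Hepatocytes and adipocytes are rich in HSD11B1, and 2 of their 9 markers reached the floor, with sums of 205.5 to 214.9, 201.9 to 228.9 and 200.2 to 211.8. ALB (mean 3.25) and ADIPOQ (2.99) did not. Of the stromal and epithelial markers 1 of 6 and 2 of 5 reached the floor, and under limma 0 of those 3 passed in any contrast, also 0 at an unadjusted p under 0.05. The labels name NCI-H929, an established myeloma line, as the only cells. In bulk RNA more cells of a type and more RNA per cell cannot be told apart. The part of the myeloid and lymphoid transcripts in the HSD11B1 values was not tested.

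The 5 genes most like HSD11B1 were taken as those with the highest Pearson correlation over the 6 arrays. They were PPCDC, an enzyme of coenzyme A synthesis (r = 0.999), GM2A, a lysosomal lipid activator (0.994), NCKAP1L, an actin regulator of blood cells (0.993), ALOX5AP, which serves leukotriene synthesis (0.992), and MCL1, a survival factor of the BCL2 family (0.992). Of all genes in the fit 190, or 2.39%, had r above 0.95. The genes differed in the size of their change. ALOX5AP had log2 differences from scramble of 1.59 in siRRM1 and 1.29 in siRRM2, PPCDC of 1.10 and 0.90, and MCL1 of 0.18 and 0.16.

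**Figure D2:**
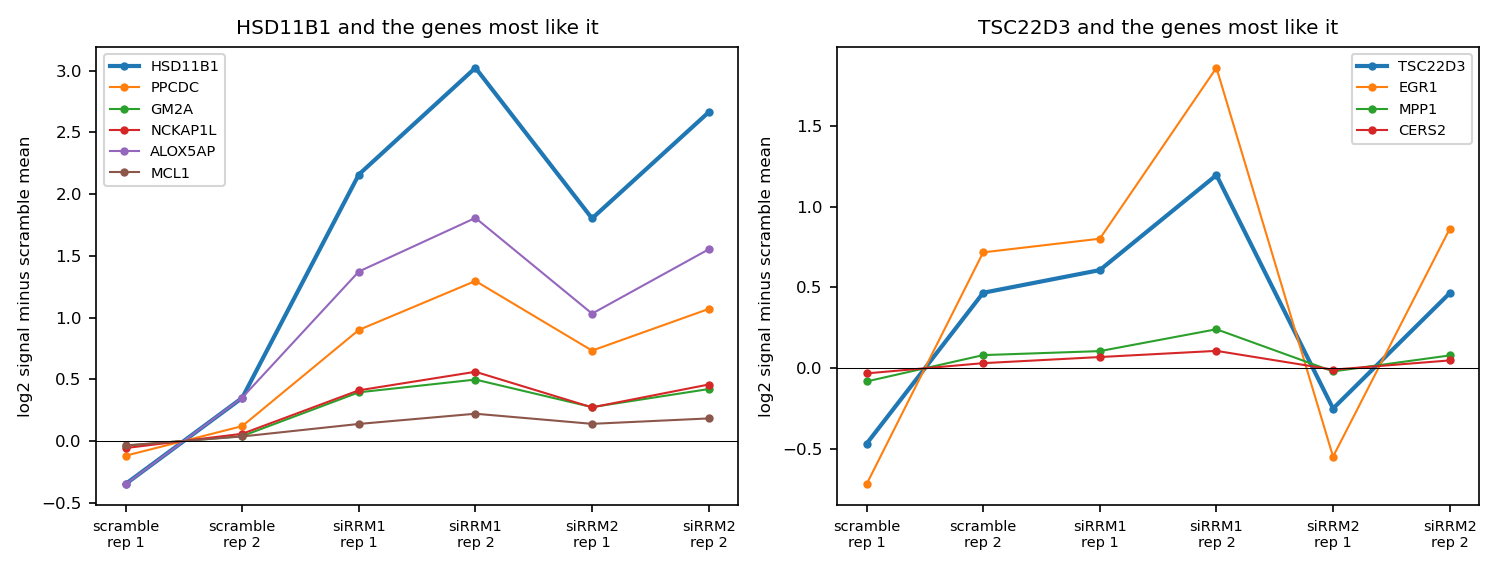
Log2 signal minus the scramble mean (vertical axis) on each of the 6 arrays for HSD11B1 with its 5 most similar genes (left) and TSC22D3 with its 3 (right). Lines only join the points of a gene. HSD11B1 reaches 3.02 on siRRM1 replicate 2, and TSC22D3 is higher on replicate 2 than on replicate 1 in each group.

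The other enzymes of hormone metabolism were mostly below the floor or near their scramble level. Of 20 genes listed 18 had a probe set and 7 entered the fit, HSD11B1 among them. Of the 6 others, under limma 1 was called higher in siRRM1 and 0 lower, where 8.22% and 7.33% of all genes were called higher and lower. It was SRD5A1, a steroid reductase that inactivates glucocorticoids as well as converting androgens, with log2 signals of 9.20 and 9.11 in scramble, 9.74 and 9.85 in siRRM1 and 9.45 and 9.53 in siRRM2. SRD5A1 rose by log2 0.64 in siRRM1 (SE 0.09, limma adjusted p = 0.00616) and had a difference of 0.33 in siRRM2 (adjusted p = 0.108). H6PD, which supplies the cofactor of HSD11B1, did not pass (log2 0.24 and 0.22, adjusted p = 0.152 and 0.284). The opposing enzyme HSD11B2 had signals of 4.22 to 4.53 on all arrays, below the floor, as did the steroid exporter ABCB1 (3.13 to 3.30). In siRRM2, where 2% of all genes were called higher and 0.517% lower, 0 of the 6 passed under limma. In that contrast 1 of the 6 had an unadjusted p under 0.05, as did 20.4% of all genes. CYP3A4, which breaks down steroids, had a log2 difference of 0.29 there (adjusted p = 0.284). The median log2 difference of the 6 was 0.18 in siRRM1 and 0.19 in siRRM2, beside -0.01 and -0.003 over all genes tested.

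NR3C1, the glucocorticoid receptor, was well expressed and differed little between the groups. Probe set 201865_x_at, the brightest, gave log2 signals of 10.29 and 10.10 in scramble, 10.41 and 10.38 in siRRM1 and 10.30 and 10.22 in siRRM2. The siRRM1 arrays lay above both scramble arrays, as they did for 28.4% of all genes, and the siRRM2 arrays overlapped with scramble. The log2 difference was 0.20 in siRRM1 (95% interval -0.03 to 0.43, limma adjusted p = 0.205) and 0.06 in siRRM2 (-0.17 to 0.29, adjusted p = 0.776). Between the knockdowns it was 0.14 (adjusted p = 0.708).

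The other NR3C1 probe sets gave the same picture. On 216321_s_at the siRRM1 difference was 0.35 (SE 0.12, adjusted p = 0.112 over 13366 probe sets), on 211671_s_at 0.16 (adjusted p = 0.372) and on 201866_s_at 0.10 (adjusted p = 0.631). In siRRM2 they were 0.12, 0.06 and 0.09. All 4 were above 0 in both knockdowns, but they target a single gene and are not independent. The related mineralocorticoid receptor, NR3C2, had differences of -0.36 in siRRM1 (adjusted p = 0.116, and 0.0391 with the replicate number as a block) and -0.28 in siRRM2 (adjusted p = 0.291). By the same measure of likeness the genes nearest to NR3C1 were RAP1A, a small GTPase (r = 0.992), CCNE1, a cyclin of S phase entry (0.986), and EPM2AIP1 (0.986).

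**Figure D3:**
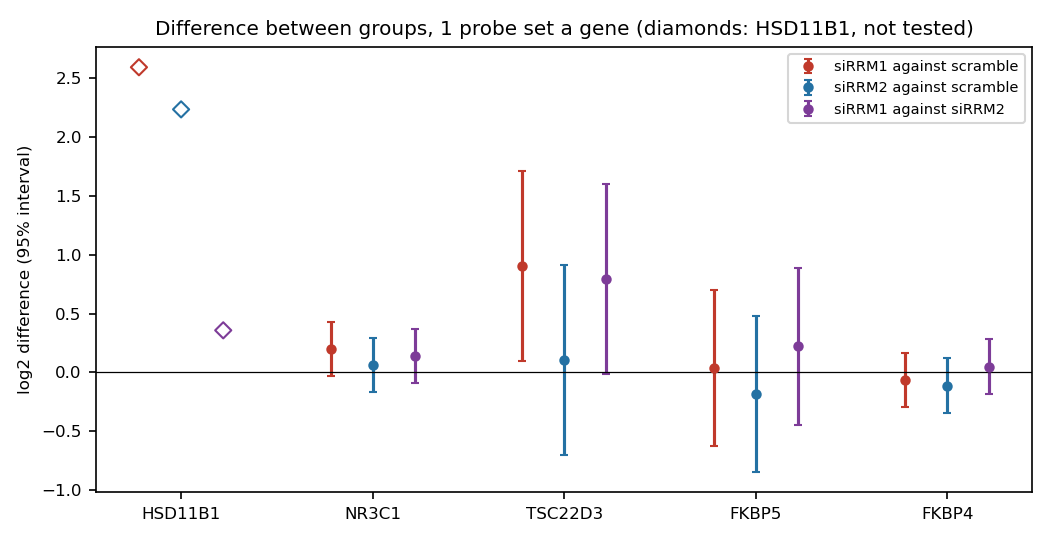
Log2 difference between groups (vertical axis) for the probe set of highest mean of each gene, by contrast. Points are differences of group means and bars their 95% intervals from limma, and the diamonds of HSD11B1 carry no interval because it was not tested. TSC22D3 in siRRM1 against scramble is the one tested value whose interval lies clear of 0, before adjustment over all genes.

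FKBP4, the cochaperone that aids nuclear entry of the receptor, varied least when each gene is taken by its brightest probe set. Probe set 200895_s_at gave log2 signals of 9.32 and 9.34 in scramble, 9.26 and 9.28 in siRRM1 and 9.33 and 9.11 in siRRM2. The differences from scramble were -0.06 in siRRM1 (95% interval -0.29 to 0.17, limma adjusted p = 0.712) and -0.11 in siRRM2 (-0.34 to 0.12, adjusted p = 0.577). The other probe set, 200894_s_at, gave -0.26 in siRRM1 (adjusted p = 0.280), from arrays at 8.76 and 8.35 against 8.78 and 8.86 in scramble. Between the knockdowns the FKBP4 difference was 0.05 (adjusted p = 0.916). The genes nearest to it were NALF2 (r = 0.977), the protease MMP9 (0.965) and the ubiquitin ligase TRIM21 (0.927).

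FKBP5, the inhibitory cochaperone and receptor target, was spread widely within siRRM1. Probe set 204560_at gave 6.42 and 6.18 in scramble, 6.85 and 5.82 in siRRM1 and 6.05 and 6.19 in siRRM2. The siRRM1 arrays were the highest and the lowest of the 6. The difference from scramble was 0.04 in siRRM1 (95% interval -0.63 to 0.70, limma adjusted p = 0.945) and -0.18 in siRRM2 (-0.85 to 0.48, adjusted p = 0.773). It was -0.48 without siRRM1 replicate 1 and 0.55 without siRRM1 replicate 2, and centring each array on its median gave -0.005. Between the knockdowns it was 0.22 (adjusted p = 0.859), and -0.29 and 0.74 without those arrays in turn. The genes nearest to it were RWDD3 (r = 0.973), the translation factor subunit EIF2B1 (0.970) and TRIM36 (0.969).

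The genes of the receptor and its chaperone complex gave no call in the main fit, which has no block. Under limma 0 of 18 genes tested, NR3C1, FKBP4 and FKBP5 among them, passed in either knockdown. Of all genes 15.5% passed in siRRM1 and 2.52% in siRRM2. At an unadjusted p under 0.05 there were 5 in siRRM1 and 1 in siRRM2, which 32.6% and 20.4% of all genes reached. The nearest to the threshold were HSP90AB1, which encodes a form of HSP90 (log2 -0.28, adjusted p = 0.0773), and TTC4, an HSP90 cochaperone (-0.33, adjusted p = 0.0889), in siRRM1. With the replicate number as a block 2 of the 18, or 11.1%, were called lower in siRRM1, where 12.2% of all genes were. They were TTC4 (adjusted p = 0.0444) and NR3C2. With a trend in the prior variance HSP90AB1 was called lower (adjusted p = 0.0142). A call also appeared without siRRM1 replicate 1, which leaves 1 array in that group. In siRRM2 the nearest to the threshold in the main fit were the ubiquitin ligase STUB1 (0.33, adjusted p = 0.129) and NR3C2. HSP90AA1, the inducible HSP90, had differences of -0.08 in both (adjusted p = 0.617 and 0.668). The list's median difference was -0.04 in siRRM1 and -0.06 in siRRM2.

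TSC22D3, the receptor target also called GILZ, was higher in siRRM1 on one of its probe sets without passing the test. Probe set 208763_s_at gave log2 signals of 7.14 and 8.07 in scramble, 8.21 and 8.80 in siRRM1 and 7.36 and 8.07 in siRRM2. The siRRM1 arrays lay above both other groups (18.9% of all genes lay higher without overlap in siRRM1 than in siRRM2), while the siRRM2 and scramble arrays overlapped. The siRRM1 mean was 1.87-fold the scramble mean (log2 0.90, SE 0.35, 95% interval 0.09 to 1.71, limma adjusted p = 0.119). In siRRM2 the difference was 0.11 (-0.70 to 0.92, adjusted p = 0.900), and between the knockdowns it was 0.79 (-0.01 to 1.60, adjusted p = 0.498).

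The arrays of a group lay 0.59 to 0.93 apart on this TSC22D3 probe set, with replicate 2 higher each time. Same-numbered arrays deviated together across genes, and in a second fit with the replicate number as a block the adjusted p was 8.18e-04 for siRRM1 against scramble (SE 0.10) and 0.0102 for siRRM1 against siRRM2. Within replicate 1 the siRRM1 array exceeded scramble by 1.08 and within replicate 2 by 0.73, and for siRRM2 these were 0.22 and -0.003. Without the block the difference from scramble ran from 0.43 without scramble replicate 1 (adjusted p = 0.455) to 1.37 without scramble replicate 2 (adjusted p = 0.0429). It was 0.61 without siRRM1 replicate 2. The other TSC22D3 probe set, 207001_x_at, did not show it. It gave 5.54 and 5.66 in scramble, 5.59 and 5.57 in siRRM1 and 5.52 and 5.43 in siRRM2, a difference of -0.02 in siRRM1 (adjusted p = 0.922). The genes nearest to 208763_s_at were EGR1, an immediate early factor (r = 0.994), MPP1 (0.992) and CERS2, a ceramide synthase (0.986).

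The wider set of genes known to be induced by the receptor gave calls in both directions. In siRRM1 4 of 26 tested were called higher and 1 lower under limma, where 8.22% and 7.33% of all genes were, and the median difference was 0.23. SESN1, a stress sensor that is also a p53 target, rose by log2 1.33 (SE 0.08, adjusted p = 3.26e-04), from 6.88 and 6.86 in scramble to 8.20 and 8.21. The adaptor SLA rose by 0.66 (adjusted p = 0.00809) and the GTPase RHOB by 0.99 (adjusted p = 0.0152). SLC19A2, a thiamine transporter, fell by 1.10 (adjusted p = 0.00911). Fewer genes of the list were called without either siRRM1 array or scramble replicate 1, and more without scramble replicate 2. Each of those fits leaves 1 array in a group. The share of all genes called in those fits is not given. The calls of SLA, RHOB and SLC19A2 were lost without siRRM1 replicate 2, with adjusted p of 0.0579, 0.0759 and 0.0555, and that of RHOB also without scramble replicate 1 (0.0707).

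In siRRM2, where 2% of all genes were called higher, SESN1 alone of the 26 passed (log2 0.84, SE 0.08, adjusted p = 0.00684), and its adjusted p was 0.0562 without siRRM2 replicate 2. With the replicate number as a block, 10 were higher and 1 lower in siRRM1 and 3 and 1 in siRRM2, where 11.8% and 12.2%, and 5.38% and 2.46%, of all genes were called. The calls added in siRRM1 under the block included TXNIP, an inhibitor of thioredoxin (log2 0.93, adjusted p = 0.0122), the kinase SGK1 (0.66, adjusted p = 0.00277), the transcription factor KLF9 (0.43, adjusted p = 0.0199) and NFKBIA, the inhibitor of NF-kappaB (0.37, adjusted p = 0.0266). These were named after their values were seen. Without the block they did not pass, with adjusted p of 0.0653, 0.372, 0.0966 and 0.160. In siRRM2 the block added SLC19A2 (-0.89, adjusted p = 0.00584), RHOB (0.45, adjusted p = 0.0406) and NFKBIA (0.41, adjusted p = 0.0409). Between the knockdowns it added, besides TSC22D3, SESN1 (0.49, adjusted p = 0.0319), SGK1 (0.63, adjusted p = 0.0219), RHOB (0.54, adjusted p = 0.0460) and the clock gene PER2 (-0.56, adjusted p = 0.0473). DUSP1, a phosphatase induced early by the hormone, had differences of 0.11 and 0.04 in the knockdowns (adjusted p = 0.847 and 0.960). ZBTB16, a target used as a marker of the response, was below the floor at 4.53 to 4.75.

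Genes on the list of receptor-repressed genes were higher where they were called. That list was chosen from general knowledge, and repression of its genes by the receptor was not measured in these cells. The largest differences were in the cytokines IL10 and IL17A. IL10 gave log2 signals of 4.71 and 5.41 in scramble, 8.59 and 8.81 in siRRM1 and 7.52 and 7.81 in siRRM2, and IL17A gave 3.57 and 3.97, 6.88 and 7.14, and 5.45 and 6.16. Both lay under the floor on both scramble arrays, like HSD11B1, and entered the fit only through their knockdown values, so they are described without a test and left out of the counts. Of the 10 other genes in the fit 3 rose and 0 fell in siRRM1, where 8.22% and 7.33% of all genes did, and 1 rose and 0 fell in siRRM2, where 2% and 0.517% did. The chemokine CCL4 rose by log2 2.70 in siRRM1 (SE 0.27, adjusted p = 0.00154) and by 1.61 in siRRM2 (adjusted p = 0.0292), and between the knockdowns its difference was 1.09 (adjusted p = 0.212, and 0.00216 with the replicate number as a block). The others called in siRRM1 were the adhesion molecule ICAM1 (0.59, adjusted p = 0.0385) and the cyclin CCND3 (0.35, adjusted p = 0.0429). The siRRM1 count was lower whichever array was left out, so the 3 calls did not all hold in any such fit. Each of those fits leaves 1 array in a group. The share of all genes called in those fits is not given. The CCL4 call in siRRM2 was lost when scramble replicate 1 was left out (adjusted p = 0.0998) and when either siRRM2 array was (0.0801 and 0.138). MYC had differences of -0.14 and 0.25 (adjusted p = 0.599 and 0.434). IL6, TNF and PTGS2 were below the floor.

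Of 19 nuclear receptor coregulators 1 rose and 1 fell in siRRM1, where 8.22% and 7.33% of all genes did. SMARCA2, an ATPase of the chromatin remodelling complex that works with the receptor, rose by log2 0.83 (SE 0.15, adjusted p = 0.0126), and ARID1A, a subunit of the same complex, fell by 0.61 (SE 0.11, adjusted p = 0.0136). Both calls were lost without siRRM1 replicate 2 (adjusted p = 0.0765 and 0.0826), and that of ARID1A without scramble replicate 1 (0.0723) or with the mean over its probe sets (log2 -0.36, adjusted p = 0.0588). With the block TBL1XR1, part of a corepressor complex, fell as well (-0.43, adjusted p = 0.0336, against 0.133 without the block). In siRRM2 0 passed under limma and 1 had an unadjusted p under 0.05, as did 20.4% of all genes. SMARCA2 (0.51, adjusted p = 0.119) and the deacetylase HDAC2 (-0.18, adjusted p = 0.306) came nearest.

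**Figure D4:**
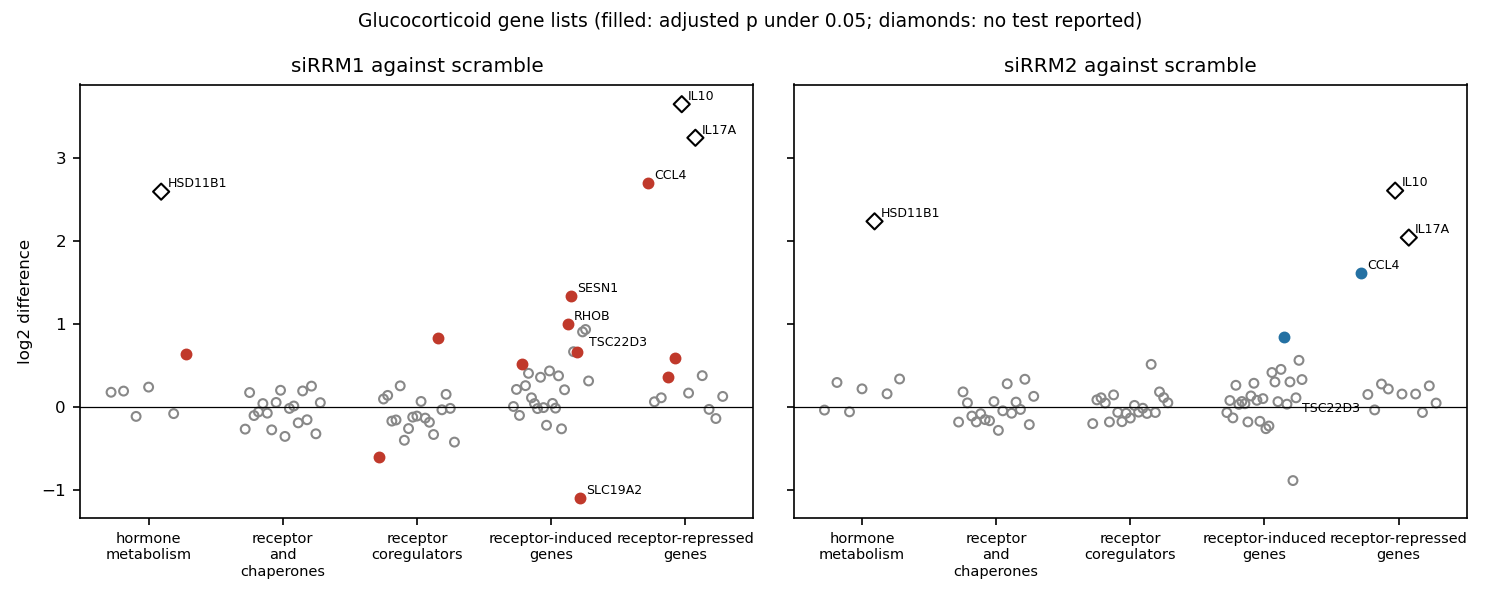
Log2 difference from scramble (vertical axis) of each tested gene of the 5 glucocorticoid lists in siRRM1 (left) and siRRM2 (right). Filled points passed an adjusted p of 0.05 in limma, open points did not, and diamonds are HSD11B1, IL10 and IL17A, for which no test is reported. Chaperone genes stay near 0 in both panels, and IL10 has the highest value in both.

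Over the 5 lists together, 81 of 129 genes entered the fit, and 78 remain without HSD11B1, IL10 and IL17A. Of the 78, in siRRM1 9 were called higher and 2 lower, or 14.1% of them beside 15.5% of all genes, and in siRRM2 2 were higher and 0 lower, or 2.56% beside 2.52%. Between the knockdowns 0 passed under limma, where 0.164% of all genes did, and 12 had an unadjusted p under 0.05, as did 10% of all genes. With the block the counts were 20, 5 and 6, where 24%, 7.84% and 1.93% of all genes were called. The siRRM1 count was lower without scramble replicate 1, siRRM1 replicate 2 or either siRRM2 array, and higher without scramble replicate 2 or siRRM1 replicate 1. The siRRM2 count was lower without scramble replicate 1 or either siRRM2 array, and higher without scramble replicate 2 or either siRRM1 array. Those fits leave 1 array in a group. The share of all genes called in them is not given, so these changes cannot be set against all genes.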

How the data were processed

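The 6 arrays were analysed from the log2 signals that the authors deposited, 22277 probe sets per array. No source used here states how the signals were summarised or normalized. Array medians of 6.11 to 6.16 show a common scale, and no further scaling was applied. Gene names came from the platform annotation, in which 19070 probe sets had 1 symbol, 1043 had several and 2164 none, and only the first were named. RefSeq identifiers (GRCh38.p14) matched 19058 and changed 0 symbols. The probe set with the highest mean stood for a gene, tested where that mean reached the 40th percentile (5.44), which left 7936 genes.

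Differences were fitted with limma 3.58.1 in R 4.3.3 over all 6 arrays (3 residual and 4.61 prior degrees of freedom), two-sided, Benjamini-Hochberg adjusted over all genes, with a threshold of 0.05. The contrasts were each knockdown against scramble and siRRM1 against siRRM2. A second fit covered all 13366 probe sets past the floor. The script was checked on simulated data. Same-numbered arrays deviated together (r = 0.382, 0.363 and 0.21 between the groups' replicate differences, across genes), and the number was also fitted as a block. The labels name no shared culture or day, so the pairing rests on the values, and the decision to treat the numbers as pairs was made with the calls of both fits known. The fit without the block is therefore the result reported, and blocked values are given beside it where they change a call.

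The members and the lists, of hormone metabolism, receptor and chaperones, coregulators, receptor-induced and receptor-repressed genes and of plasma cell, myeloid, T and NK, hepatocyte and adipocyte, stromal and epithelial markers, were chosen from general knowledge with earlier results of these data known. Named genes were the members, up to 3 risen and 3 fallen called genes a list with the smallest adjusted p (2 with the smallest p where none passed), the genes most correlated with each member and marker genes. NR3C2 in siRRM1, HSP90AA1, H6PD, HSD11B2, ABCB1, DUSP1, ZBTB16, MYC, IL6, TNF, PTGS2, ICAM1, CCND3 and those called only with the block were added after values were seen. Alternatives were no filter, a 60th percentile filter, median centring, quantile normalization, a trend in eBayes, the mean over probe sets, only the 4 arrays compared, the block, and leaving out each array.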

Additional observations from a re-analysis of the deposited data

How the results depend on the processing

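For NR3C1, FKBP5 and FKBP4, under limma 0 of the adjusted p passed in any contrast under the alternatives that tested them with both arrays of each group. The HSD11B1 differences from scramble, given as a description, ran from 2.16 to 3.02 in siRRM1 and from 1.80 to 2.66 in siRRM2. These ends come from leaving out an array, which moves a group mean by a fixed part of its replicate gap. Alternatives that change only the spread or the genes fitted cannot move them. With the filter at the 60th percentile HSD11B1 and FKBP5 were not tested. TSC22D3 in siRRM1 against scramble passed with the replicate block (log2 0.90) and without scramble replicate 2, and its values with an array left out ran from 0.43 to 1.37. Between the knockdowns it passed with the block (0.79). HSD11B1 was chosen for its rise, and IL10 and IL17A entered the fit only through their knockdown arrays. Counts that include them are therefore a description and no test. Without them 11 of 78 genes were called in siRRM1, 2 in siRRM2 and 0 between the knockdowns. Of all genes 15.5%, 2.52% and 0.164% were called, and 24%, 7.84% and 1.93% with the replicate block. The share with an array left out is not given. Counted with HSD11B1, IL10 and IL17A, the genes called over the 5 lists numbered 14 in siRRM1, 5 in siRRM2 and 0 between the knockdowns. With the replicate block they were 23, 8 and 8, and with each array left out in turn they ran from 5 to 15, from 1 to 5 and from 0 to 1. The block changed no other call of the members. Leaving out HSD11B1, IL10 and IL17A, which lay under the floor on both arrays of a group, was a choice made after seeing the data. It leaves fewer genes. With an array left out, the lone array of its group is assumed to vary like the others, and fewer arrays enter the fit. The other causes were not tested. The 2 arrays a group set the limit on what could be detected.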

Other observations

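A few transcripts differed between the arrays of a group by a wide gap, and did so the same way each time. The gap between replicate 1 and replicate 2 exceeded 0.5 on the log2 scale in every group for 17 of 7936 genes tested (0.214%). In all 17 the gap had the same sign in every group, with replicate 2 higher for 12 and replicate 1 higher for 5. HSD11B1 was among them, with gaps of 0.70 in scramble, 0.86 in siRRM1 and 0.86 in siRRM2, and so was TSC22D3 (0.93, 0.59 and 0.71). Among the 26 receptor-induced genes the others were SGK1, a kinase of salt transport and survival (0.86, 1.09 and 1.14), and ANXA1, an anti-inflammatory phospholipid-binding protein (0.76, 0.65 and 0.62). The early factor EGR1 had gaps of 1.43, 1.06 and 1.41. For SGK1 the difference between siRRM1 and scramble was 0.66, less than any of its gaps. FKBP5 did not share this, with gaps of -0.24, -1.03 and 0.14. These genes were picked out after their values were seen, and no test was made.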
